A study of Homo sapiens with 3 samples.

Results

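The genes of the translation elongation and release factors were followed across cells expressing wild-type (WT), G245S or R273H p53. They were chosen by gene name as the subunits of the elongation factors eEF1 and eEF2, the kinase of eEF2 and the release factors: EEF1A1, EEF1A2, EEF1B2, EEF1D, EEF1G, EEF1E1, EEF2, EEF2K, ETF1 and GSPT1. These are 10 of the 63241 genes listed, and all 10 were among the 19820 genes with enough counts to be tested.

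Protein synthesis adds amino acids one at a time, and the elongation factors drive each step. The GTPase eEF1A brings an aminoacyl-tRNA to the ribosome, the eEF1B complex reloads eEF1A with GTP, and the GTPase eEF2 then moves the ribosome along to the next codon. At a stop codon the release factor eRF1 (gene ETF1) frees the finished chain together with the GTPase eRF3 (gene GSPT1). The elongation factors eEF1A and eEF2 are among the most abundant proteins of growing cells, and many mRNAs of the family start with a tract of pyrimidines through which the kinase mTOR controls translation along with that of ribosomal proteins.

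Ribosome profiling (Ribo-seq) sequences the mRNA pieces protected inside ribosomes, so that the count of a gene follows the number of ribosomes on its mRNA. It was done in HEK293T cells, which derive from human embryonic kidney and express the SV40 large T antigen, and the study asked whether mutant p53 changes the translation of the mRNAs it binds. The 3 groups expressed p53 constructs that were WT, G245S or R273H, both mutants being hotspot changes in the DNA-binding domain. All dishes were grown as a monolayer in DMEM with serum, received cycloheximide for 2 min, and the lysates were treated with micrococcal nuclease (3 U per µg RNA, 30 min). There were 3 dishes in each group, and an adjusted p-value measures a group difference against the spread between dishes. At reverse transcription the dishes of a group were joined into one pool, with a separate pool for each group, so group and pool cannot be told apart in any comparison. The labels call the cells both stable and transiently expressing, and the treatment given for the mutants names the WT construct, so the titles were used to assign groups. The paper describes the cells used for Ribo-seq as stable lines, with the dishes of a group prepared from the same line. Cell line and construct therefore cannot be told apart, and the spread between dishes is not a spread between lines. Cells without a p53 construct and matched RNA-seq were not analysed here, so a change in mRNA abundance and a change in ribosomes per mRNA cannot be told apart, nor can fewer expressing cells and less signal per cell.

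The 9 libraries held 18.7 to 24.6 M counts each, of which the 10 genes together took 1.09% to 1.13%. MDM2 and CDKN1A, which WT p53 activates, averaged 863 and 61.3 CPM (counts scaled to a common library total) in WT, 76.0 and 16.0 CPM in G245S, and 76.9 and 13.9 CPM in R273H, so both were highest in the group labelled WT. Genes typical of HEK293 cells were detected in every library, from LHX1 at 3.04 to 6.34 CPM to VIM at 883 to 983 CPM. Of the marker genes of other cells, PTPRC and CD3E (blood), ALB (liver), MYOD1 and MYH1 (skeletal muscle) and GFAP (astrocytes) stayed at or below 0.516 CPM. In each group dish 3 stood furthest from the others. Chi-square per degree of freedom between a pair of dishes lay at 1.48 to 1.56 where the pair was dishes 1 and 2, and at 1.88 to 2.62 where it held dish 3.

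How much of a count belongs to one gene differed widely among the 10. Each coding region was cut into all its windows of 30 bases, about the length of a footprint, and each window was looked up in the transcripts of every other gene. EEF1A2, EEF2 and EEF2K shared no window with another gene, and GSPT1 shared 4.88% of its windows. By contrast 98.5% of the EEF1A1 windows, 86.4% of the EEF1B2 windows, 81.2% of the EEF1E1 windows and 100% of the EEF1G windows were also found elsewhere. For ETF1 the share was 34.7% and for EEF1D 20.7%. For EEF1A1 and EEF1B2 most of the other carriers were pseudogenes, copies of the gene elsewhere in the genome that are not known to make the protein. The table has 77 rows named as pseudogenes of these genes, 49 of them of EEF1A1, and in every library between 29.6% and 31.2% as many counts were given to the EEF1A1 pseudogenes as to EEF1A1 itself.

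**Figure D1:**
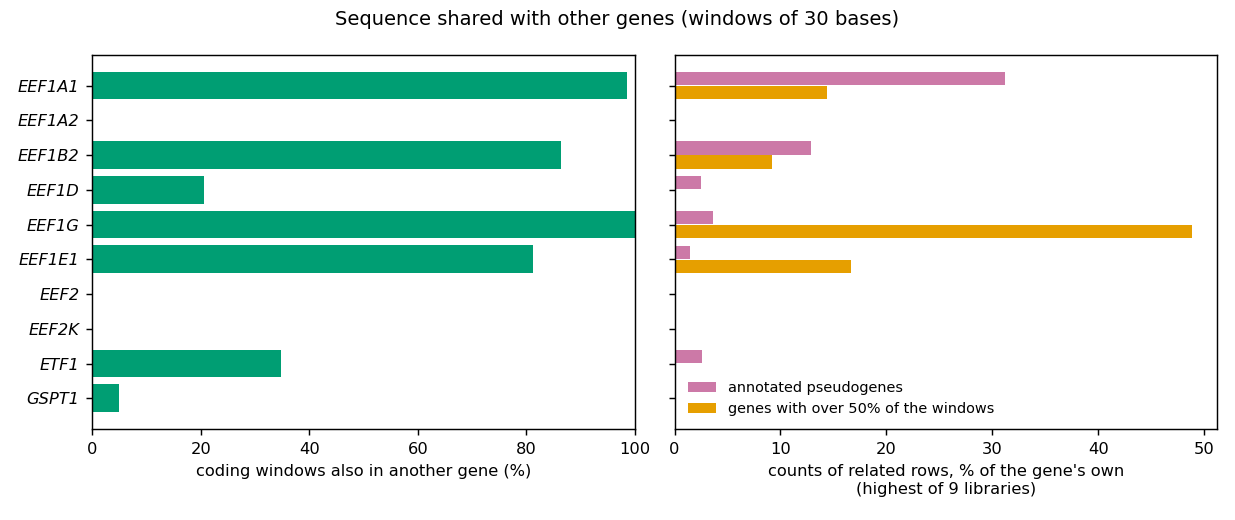
Left, the percent of coding windows of 30 bases that also occur in transcripts of another gene, for each of the 10 genes. Right, the counts assigned to annotated pseudogenes (upper bars) and to genes that hold over 50% of the windows (lower bars), as a percent of the counts of the gene itself in the library with the highest value. EEF1G shares 100% of its windows and related rows hold up to 48.8% as many counts, whereas EEF1A2, EEF2 and EEF2K have no bar.

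The pair of eEF1A genes shows how the value of one copy can be uncertain while the other has a sequence of its own. The first 30 coding bases are written for EEF1A1 (chr6:73519997-73520026, minus strand, GRCh38), for EEF1A2 (chr20:63497734-63497763, minus strand) and for the pseudogene EEF1A1P5 (chr9:133019486-133019515, plus strand), with capitals where a base differs from EEF1A1.
EEF1A1: atgggaaaggaaaagactcatatcaacatt
EEF1A2: atgggCaaggaGaagacCcaCatcaacatC
EEF1A1P5: atgggaaaggaaaagactcatatcaacatt
EEF1A2 differs at 5 of these bases and EEF1A1P5 at none. Over the whole coding region EEF1A1 and EEF1A2 are identical at 1086 of 1389 aligned bases (78.2%) but have no window of 30 bases in common, so a footprint can be assigned to one or the other. EEF1A1 and EEF1A1P5 are identical at 1385 of 1389 bases (99.7%).

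Of the 10 genes, 5 were higher in G245S than in WT and none was lower, at an adjusted p under 0.05 in edgeR's quasi-likelihood test. Across all genes tested 24.7% were called in this comparison, 12.6% higher and 12.1% lower. In R273H 4 of the 10 were higher than in WT and none was lower, against 28.8% of all genes called, 14.2% higher and 14.6% lower. Abundant genes were called more often: of the 4562 genes whose mean count reached 1000, 46.5% were called in G245S and 51.8% in R273H, with 27.4% and 27.8% higher. EEF1A2, EEF1E1 and ETF1 were higher in both mutants, EEF1G and EEF2 in G245S, and EEF1A1 in R273H. The 2 comparisons share the WT dishes. All changes were small, between an increase of 3.67% (EEF1A1 in R273H) and one of 15.7% (EEF1A2 in R273H). The median log2 fold change of the 10 genes was 0.079 in G245S and 0.029 in R273H, beside -0.0007 and -0.0024 for all genes tested and 0.0185 and 0.0072 for the abundant ones.

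**Figure D2:**
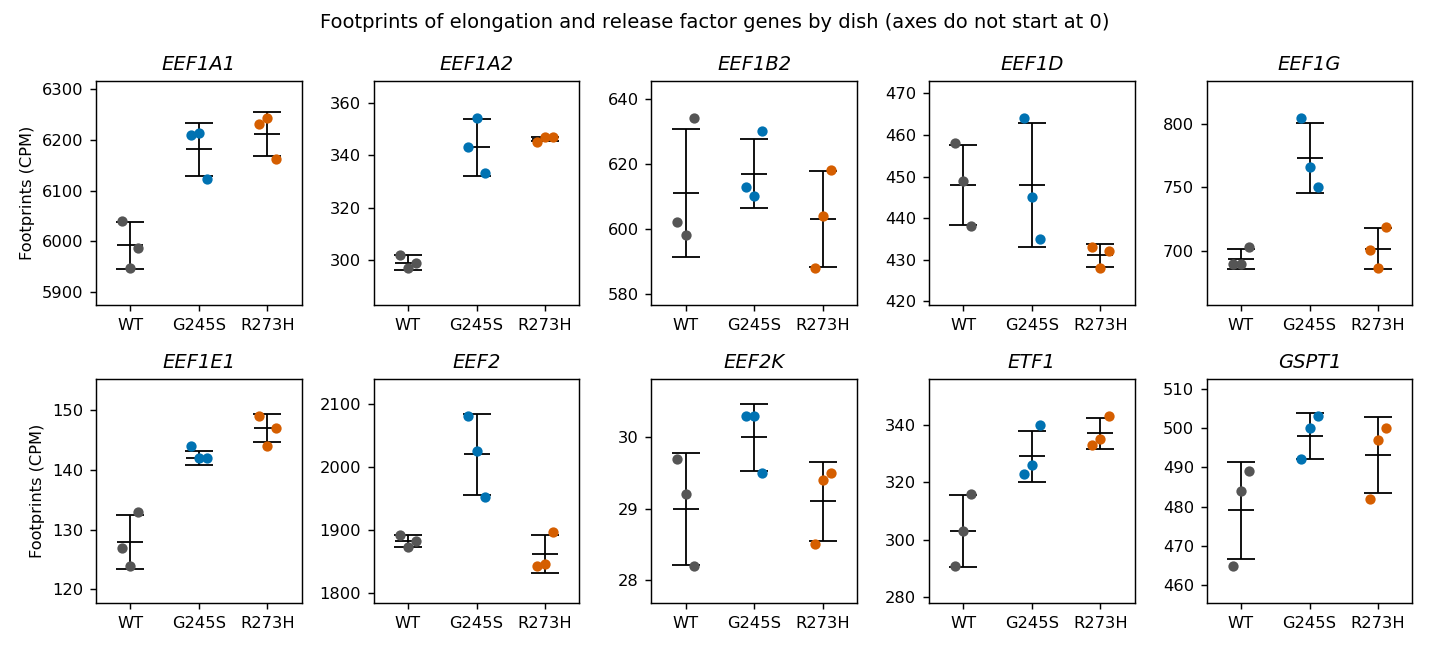
Footprint counts of each gene, scaled to a common library total (CPM), in the 3 dishes of each group, with the mean and SD as bars. Each panel has its own axis, which does not start at 0. The dishes of both mutants lie above all WT dishes for EEF1A1, EEF1A2, EEF1E1 and ETF1, and only those of G245S do for EEF1G and EEF2 among the genes called.

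**Figure D3:**
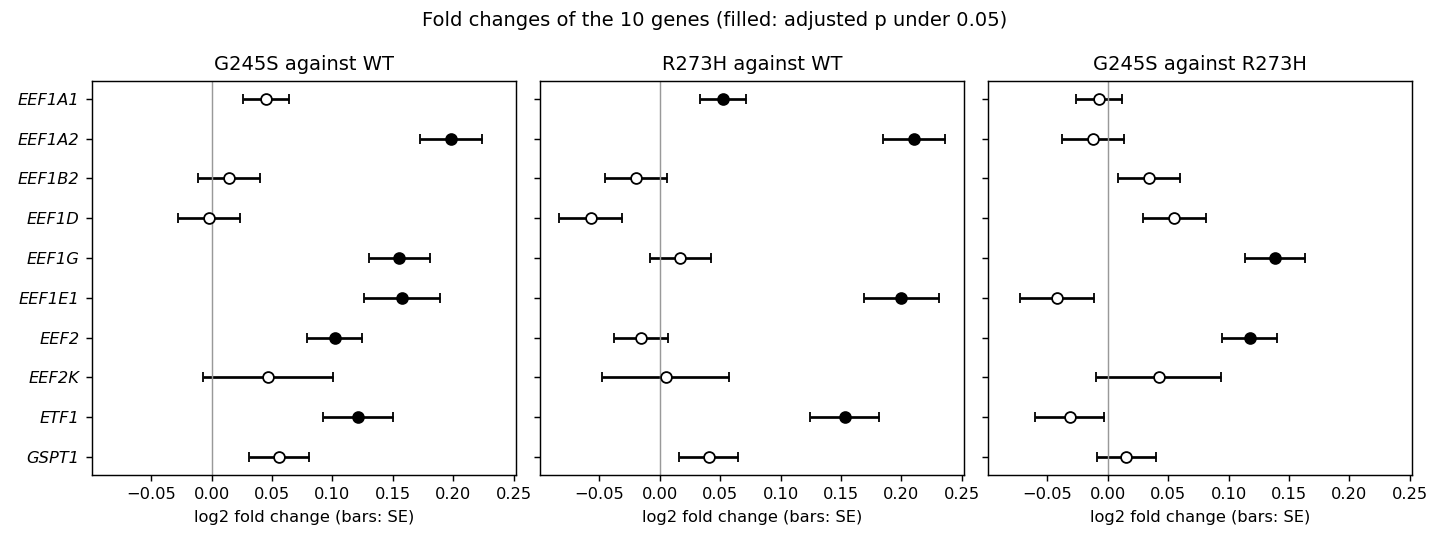
Log2 fold change of each gene with its standard error (SE), for each mutant against WT and for the mutants against each other, with filled points where the adjusted p was under 0.05. EEF1G and EEF2 are filled in the left and right panels, EEF1A2, EEF1E1 and ETF1 in the left and middle ones.

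EEF1A1 encodes the main carrier of aminoacyl-tRNA and had by far the most footprints of the 10 genes (ENSG00000156508, chr6:73489308-73525587, minus strand, 8 exons). Its span overlaps MTO1 and EEF1A1-AS1 on the other strand. In WT the dishes held 6041, 5948 and 5987 CPM, the G245S dishes 6209, 6213 and 6122 CPM and the R273H dishes 6231, 6242 and 6162 CPM. The dishes of each mutant lay above all those of WT. Its log2 fold change was 0.05 in R273H (SE 0.0190, adjusted p 0.0395) and 0.04 in G245S (SE 0.0190, adjusted p 0.0850), so only the first passed the threshold. Of the calls made, this one was lost under the most alternatives. It did not pass without any one of WT dishes 1 and 2, G245S dish 2 and R273H dishes 1, 2 and 3, where the adjusted p lay between 0.0514 and 0.126, with the length and GC trend removed (0.0532) or with the pseudogenes added to the gene (0.0644). The G245S difference was called under some alternatives, at 0.00998 with DESeq2 and at 0.0464 with upper-quartile scaling.

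Of the 3 most abundant pseudogene rows of EEF1A1, one was called in R273H, another in G245S and the third in neither. EEF1A1P5 averaged 416 ± 15.9 CPM in WT (SD, n = 3 dishes), 423 ± 2.07 CPM in G245S and 416 CPM in R273H. EEF1A1P6 was higher in R273H by a log2 fold change of 0.08 (adjusted p 0.0246) and EEF1A1P13 in G245S by 0.12 (adjusted p 0.0230). Of the 63 pseudogene rows tested for all 10 genes, 12 were higher and 1 lower in G245S, and 11 were higher and 2 lower in R273H. Of all genes tested 24.7% were called in G245S, 12.6% higher, and 28.8% in R273H, 14.2% higher. How reads that fit both a gene and its copies were handled is not given in the sources used here, so these rows may share reads with the genes they copy.

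EEF1A2 encodes the second form of eEF1A, which adult tissues keep mainly in neurons and muscle (ENSG00000101210, chr20:63488013-63499239, minus strand, 8 exons). It was higher in both mutants. In WT its dishes held 302, 297 and 299 CPM, the G245S dishes 343, 354 and 333 CPM and the R273H dishes 345, 347 and 347 CPM. Every dish of both mutants lay above the WT range. In the fit the log2 fold change was 0.20 in G245S (SE 0.0259, adjusted p 1.2e-06) and 0.21 in R273H (SE 0.0256, adjusted p 3.0e-07), increases of 14.7% and 15.7%. Between the mutants the difference was -0.01, with a 95% interval from -0.06 to 0.04.

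The share of EEF1A2 in the eEF1A footprints was higher in every mutant dish than in any WT dish. It made up 4.76%, 4.75% and 4.75% of the counts of both genes in the WT dishes, 5.23%, 5.40% and 5.16% in the G245S dishes and 5.25%, 5.26% and 5.32% in the R273H dishes. The mean difference from WT was 0.506 percentage points in G245S and 0.524 in R273H. In a two-sided exact permutation test each of these had p = 0.1, the smallest that 3 dishes against 3 can give, and an adjusted p of 0.129 over the 9 comparisons of this kind. The counts of the EEF1A1 pseudogenes are left out of this share.

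The eEF1B complex, which exchanges GDP for GTP on eEF1A, is built from EEF1B2 and EEF1D, which carry the exchange activity, and the scaffold EEF1G. Neither catalytic subunit was called in a mutant. EEF1B2 (ENSG00000114942, chr2:206159585-206162928, plus strand, 6 exons) held 602, 598 and 634 CPM in WT, 613, 610 and 630 CPM in G245S and 588, 604 and 618 CPM in R273H. All 3 groups overlapped, and the log2 fold change was 0.01 in G245S (95% interval -0.04 to 0.07) and -0.02 in R273H (-0.07 to 0.03). With the trend of each library over coding length and GC content taken out, it was 0.06 in G245S (adjusted p 0.0260). The rows of its pseudogenes EEF1B2P3 and EEF1B2P6, picked here because they hold over 50% of its windows, were higher in both mutants. EEF1B2P3 rose by 0.22 on the log2 scale in G245S and 0.30 in R273H, with adjusted p-values of 0.00254 and 4.7e-05. EEF1B2P6 rose by 0.26 in each (adjusted p 0.0316 and 0.0268).

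EEF1D (ENSG00000104529, chr8:143579697-143599541, minus strand, 10 exons) held 458, 449 and 438 CPM in WT, 464, 445 and 435 CPM in G245S and 433, 428 and 432 CPM in R273H. It was the gene with the clearest downward difference of the 10, in R273H, where every dish was below every WT dish. This decrease of 3.89% did not pass the threshold (log2 fold change -0.06, SE 0.0257, adjusted p 0.0964). It passed without WT dish 3 (adjusted p 0.0452) and without dish 3 of every group (0.0156), a setting added after the data were seen. In G245S the log2 fold change was -0.00 (95% interval -0.06 to 0.05).

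EEF1G separated the mutants (ENSG00000254772, chr11:62559596-62574086, minus strand, 10 exons). Dishes of WT held 690, 690 and 703 CPM, the G245S dishes 804, 766 and 750 CPM and the R273H dishes 701, 687 and 719 CPM. G245S lay above both other groups, and R273H overlapped WT. The log2 fold change was 0.16 in G245S (SE 0.0253, adjusted p 3.3e-05) and 0.02 in R273H (SE 0.0253, adjusted p 0.667). Between the mutants it was 0.14 (SE 0.0251, adjusted p 0.00196).

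The R273H value of EEF1G depends on how shared reads are counted. The locus ENSG00000255508, which overlaps EEF1G on the same strand, holds 99.2% of its windows, and the processed pseudogene ENSG00000283041 holds 82.6%. Together these 2 rows held 37.6% to 48.8% as many counts as EEF1G. ENSG00000255508 averaged 163 ± 6.64 CPM in WT (SD, n = 3 dishes), 213 ± 3.46 CPM in G245S and 199 ± 8.94 CPM in R273H. It rose by 0.38 in G245S (adjusted p 1.0e-09) and by 0.29 on the log2 scale in R273H (adjusted p 1.8e-07). ENSG00000283041 rose by 0.38 and 0.28. With these counts added to EEF1G, a sum chosen after the data were seen, the log2 fold change became 0.22 (adjusted p 1.2e-08) for G245S and 0.10 (adjusted p 0.00149) for R273H. The sum was thus higher in both mutants, and G245S still exceeded R273H by 0.13 (adjusted p 0.00176).

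EEF1E1, also known as AIMP3, has a name from its likeness to eEF1 subunits but serves as a scaffold of the multisynthetase complex, which holds several aminoacyl-tRNA synthetases together (ENSG00000124802, chr6:8073360-8102559, minus strand, 4 exons). It was higher in both mutants. The WT dishes held 127, 124 and 133 CPM, the G245S dishes 144, 142 and 142 CPM and the R273H dishes 149, 144 and 147 CPM. The groups of both mutants cleared the WT range. Its log2 fold change was 0.16 in G245S (SE 0.0315, adjusted p 0.000398) and 0.20 in R273H (SE 0.0309, adjusted p 1.2e-05). The read-through gene EEF1E1-BLOC1S5, which holds 71.6% of its windows, was at 17.5 ± 1.41 CPM in WT (SD, n = 3 dishes), 20.0 ± 1.53 CPM in G245S and 21.5 ± 2.65 CPM in R273H, and was called in R273H (log2 fold change 0.30, adjusted p 0.00842).

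The genes of the complex that holds EEF1E1 were mostly higher too, as was VARS1, which is listed with them. Of 11 genes, the 10 other members of the multisynthetase complex and VARS1, a valyl-tRNA synthetase that binds the eEF1B complex, 10 were higher in G245S and 10 in R273H, 9 of them in both, and none was lower. This is 90.9% of the list in each mutant, beside 12.6% and 14.2% of all genes higher and 27.4% and 27.8% of the abundant ones. The median log2 fold change was 0.157 and 0.162. IARS1, the isoleucyl-tRNA synthetase, had the largest change of the 11, 0.42 in G245S and 0.37 in R273H, with adjusted p-values of 1.0e-13 and 1.4e-12. VARS1 rose by 0.35 and 0.25 and the methionyl-tRNA synthetase MARS1 by 0.33 and 0.26. None of the 11 was called between the mutants. Synthetases outside this list were not set beside it, so the rise is not shown to be particular to these genes. The list was chosen with earlier results of these data known.

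EEF2, the translocase and the target of the kinase EEF2K, was the second most abundant of the 10 by count (ENSG00000167658, chr19:3976056-3985463, minus strand, 15 exons). In WT the dishes held 1891, 1873 and 1882 CPM, the G245S dishes 2081, 2025 and 1952 CPM and the R273H dishes 1843, 1846 and 1897 CPM. All G245S dishes lay above the other 6, while R273H overlapped WT. In the fit the log2 fold change was 0.10 in G245S (SE 0.0227, adjusted p 0.00127) and -0.02 in R273H (SE 0.0227, adjusted p 0.661). Between the mutants it was 0.12 (SE 0.0226, adjusted p 0.00330). This last call was lost without G245S dish 1, the highest dish (log2 fold change 0.10, adjusted p 0.0618), and with the length and GC trend removed (0.08, adjusted p 0.0743). EEF2 shares no window with another gene, so its footprints have no exact match in other annotated transcripts, but the snoRNA gene SNORD37 lies within its span.

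The balance of footprints between the translocase and the carrier set the 3 groups apart without overlap. A permutation test of 3 dishes against 3 could not pass the threshold here, whatever the values. There were 31.4 EEF2 counts for every 100 EEF1A1 counts in WT, 32.7 in G245S and 30.0 in R273H (means of 3 dishes). The exact permutation p was 0.1 for all 3 comparisons, the smallest possible, and 0.129 after adjustment. The EEF1A1 pseudogenes, with 29.6% to 31.2% as many counts as EEF1A1, are left out of this ratio.

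EEF2K, which phosphorylates eEF2 and so slows elongation, was the lowest of the 10 (ENSG00000103319, chr16:22206278-22288738, plus strand, 18 exons). In WT its dishes held 29.7, 29.2 and 28.2 CPM, the G245S dishes 30.3, 30.3 and 29.5 CPM and the R273H dishes 28.5, 29.4 and 29.5 CPM. The groups overlapped. The 95% interval of the log2 fold change was -0.06 to 0.16 for G245S and -0.10 to 0.11 for R273H. The first interval is wide enough to hold a change of the size seen in ETF1.

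Among 17 genes of the kinases, phosphatase and calmodulin that act on EEF2K, 1 was higher and 4 were lower in G245S, and 3 were higher and 5 lower in R273H. The shares called, 29.4% and 47.1%, stand beside 24.7% and 28.8% of all genes tested. The largest change was in PRKAB1, the β1 subunit of the AMP-activated kinase AMPK, which activates EEF2K; PRKAB1 is also a known target of WT p53. It averaged 84.3 ± 2.51 CPM in WT (SD, n = 3 dishes), 42.1 ± 3.15 CPM in G245S and 43.3 ± 0.716 CPM in R273H. The adjusted p was 4.9e-16 for G245S and 4.7e-16 for R273H. PRKAG1, the γ1 subunit of AMPK, fell by 0.14 and 0.17 on the log2 scale. The catalytic subunits PRKAA1 (-0.11 and -0.09) and PRKAA2 (0.02 and 0.11) were called in neither mutant. PPP2CB, a catalytic subunit of protein phosphatase 2A, fell by 0.18 and 0.23. The other one, PPP2CA, had more footprints (209 against 67.3 CPM in WT) and was called higher in both mutants, by 0.11 and 0.08. Footprints of these genes say nothing of the phosphorylation of eEF2, which was not measured here.

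ETF1, the release factor that reads stop codons, was higher in both mutants (ENSG00000120705, chr5:138506095-138543236, minus strand, 11 exons). Dishes of WT held 291, 303 and 316 CPM, the G245S dishes 323, 326 and 340 CPM and the R273H dishes 333, 335 and 343 CPM. In each group dish 3 was the highest, and no mutant dish reached down to the WT range. The log2 fold change was 0.12 in G245S (SE 0.0290, adjusted p 0.00246) and 0.15 in R273H (SE 0.0286, adjusted p 0.000164).

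GSPT1, the partner GTPase, was called in neither mutant (ENSG00000103342, chr16:11868128-11916082, minus strand, 15 exons). The WT dishes held 465, 484 and 489 CPM, the G245S dishes 492, 500 and 503 CPM and the R273H dishes 482, 497 and 500 CPM. G245S lay just above WT without overlap, and R273H overlapped it. Its log2 fold change was 0.06 in G245S (SE 0.0248, adjusted p 0.103) and 0.04 in R273H (95% interval -0.01 to 0.09). Without WT dish 3 the first passed the threshold, at 0.07 with an adjusted p of 0.0350.

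The ratio of the release factors was higher in every mutant dish than in any WT dish, a difference that did not pass a test of its own. For every 100 GSPT1 counts there were on average 63.2 ETF1 counts in WT, 66.1 in G245S and 68.3 in R273H. Neither mutant overlapped WT, with an exact permutation p of 0.1, the smallest possible, and 0.129 adjusted. The mutants overlapped each other (exact permutation p = 0.2). Scaled to coding length, the ratio was 92.0, 96.3 and 99.5 ETF1 per 100 GSPT1.

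Per kilobase of coding length the level of the 10 genes differed widely. In WT, EEF1A1 stood at 4314 CPM per kb, EEF1B2 at 902, EEF2 at 730 and EEF1G at 528 CPM per kb. Of the other factors, GSPT1 stood at 250, EEF1E1 at 243, EEF1D and ETF1 at 231 and EEF1A2 at 215 CPM per kb, and EEF2K at 13.3. The SD over dishes was 6.46 CPM per kb for GSPT1, 8.63 for EEF1E1, 4.99 for EEF1D, 9.57 for ETF1 and 1.95 for EEF1A2. On this scale the dishes of GSPT1 overlapped those of EEF1E1, those of EEF1E1 overlapped those of ETF1, and those of ETF1 overlapped those of EEF1D, while EEF1A2 lay below all of these. The coding length used for EEF1D, 1944 bases, is that of a long form of its protein, and a shorter form would give it a higher level per kb, so its place in the order depends on that choice. The levels of EEF1A1, EEF1B2, EEF1G and EEF1E1 depend on counts whose windows are mostly shared with other rows.

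**Figure D4:**
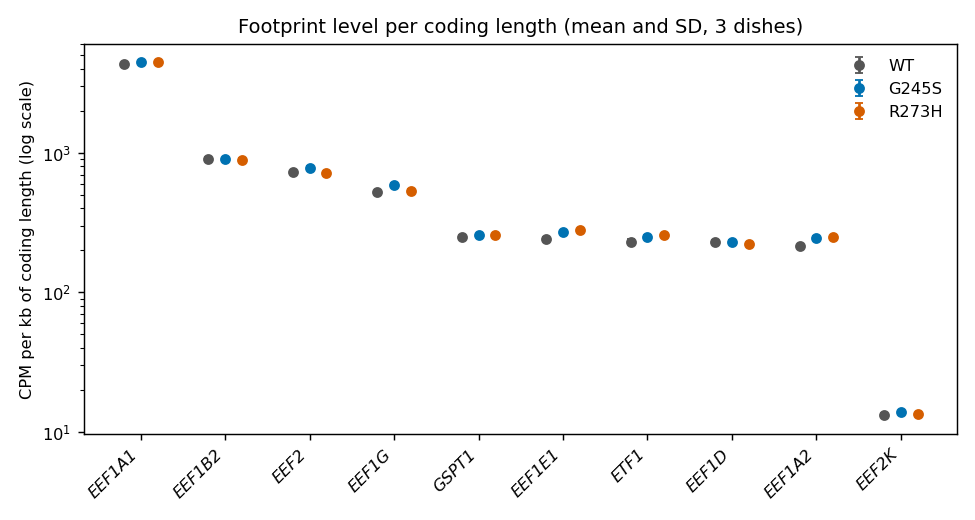
CPM per kilobase of coding length of each gene on a log axis, as the mean and SD of 3 dishes in each group, ordered by the WT level. The SD bars are smaller than the points. EEF1A1 is highest, at 4314 CPM per kb in WT, and EEF2K lowest, at 13.3.

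Because mRNAs of this family often start with a C followed by pyrimidines, the annotated transcription starts were read in RefSeq (GRCh38.p14). The motif searched was a C at the first transcribed base followed by at least 4 bases that are C or T, on the strand of the gene. It is present in 4.07% of 35116 start windows and in 48 of 80 windows of ribosomal protein genes (60%). Of the 8 genes whose starts were read, EEF1A1, EEF2 and EEF1B2 held it, the last at one of its 2 starts. These 3 are shown with EEF1G, which does not hold it, as 15 bases before and 15 bases from the start, with the run of C and T in capitals. They lie at chr6:73521018-73521047 (EEF1A1, minus), chr19:3985449-3985478 (EEF2, minus), chr2:206159880-206159909 (EEF1B2, plus) and chr11:62573877-62573906 (EEF1G, minus).
EEF1A1: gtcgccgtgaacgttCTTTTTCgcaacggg
EEF2: gttgacgtcagcgttCTCTTCCgccgtcgt
EEF1B2: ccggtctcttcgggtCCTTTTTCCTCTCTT
EEF1G: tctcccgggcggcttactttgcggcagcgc
Of the genes with the motif, EEF2 was called in G245S against WT, EEF1A1 in R273H against WT and EEF1B2 in neither. The starts of ETF1, EEF1E1, GSPT1 and EEF2K, and the other start of EEF1B2, had neither C nor T at the first base. A start annotated in RefSeq need not be the one used in these cells.

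Other genes of translation give the background to these changes. Of 80 cytosolic ribosomal protein genes tested, 40 were higher and 5 lower in G245S, and 31 were higher and 7 lower in R273H, which is 56.2% and 47.5% called, with medians of 0.068 and 0.035. Among the abundant genes 46.5% and 51.8% were called, 27.4% and 27.8% higher, with medians of 0.0185 and 0.0072. RPL5 rose by 0.20 and 0.19 on the log2 scale, while FAU fell by 0.30 and 0.39 and RPS19 by 0.26 and 0.31. Of 35 initiation factor genes, 13 were higher and 4 lower in G245S and 11 and 3 in R273H, 17 and 14 called in all. EIF3L (0.30 and 0.33) and EIF3E (0.28 and 0.33), subunits of the scaffold eIF3, had the largest increases of those called in both mutants, and EIF1B, a start codon factor, fell by 0.25 and 0.19. The medians of the 10 elongation and release factor genes, 0.079 and 0.029, lay near those of the ribosomal protein genes.

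Factors that act after or beside the elongation cycle changed in both directions. Of 17 recycling, rescue and accessory factors 3 were higher and 2 lower in G245S, and 2 were higher and 1 lower in R273H, shares of 29.4% and 17.6% beside 24.7% and 28.8% of all genes. ABCE1, which splits ribosomes after termination, rose by 0.18 and 0.20 on the log2 scale, and LTN1, a ubiquitin ligase for stalled chains, by 0.16 and 0.22. ASCC3, a helicase that takes collided ribosomes apart, fell by 0.75 and 0.67 on the log2 scale, with adjusted p-values of 2.1e-15 and 1.6e-14. It was the only gene of this list called lower in both. Of 18 enzymes that modify the factors, 4 were higher and 2 lower in G245S (33.3% called) and 4 and 1 in R273H (27.8%). EEF2KMT, which methylates eEF2, rose by 0.20 and 0.23 and DPH5, an enzyme of the diphthamide that eEF2 carries, by 0.10 and 0.20. TRMT112, a partner of the methyltransferase that acts on eRF1, fell by 0.18 and 0.24. In mitochondria, where other proteins do the same work, 3 of 9 factors were higher in G245S (33.3%) and 5 in R273H (55.6%), with none lower. Those called in both were the tRNA carrier TUFM (0.22 and 0.17), its exchange factor TSFM (0.17 and 0.14) and the release factor MTRF1L (0.32 and 0.37).

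**Figure D5:**
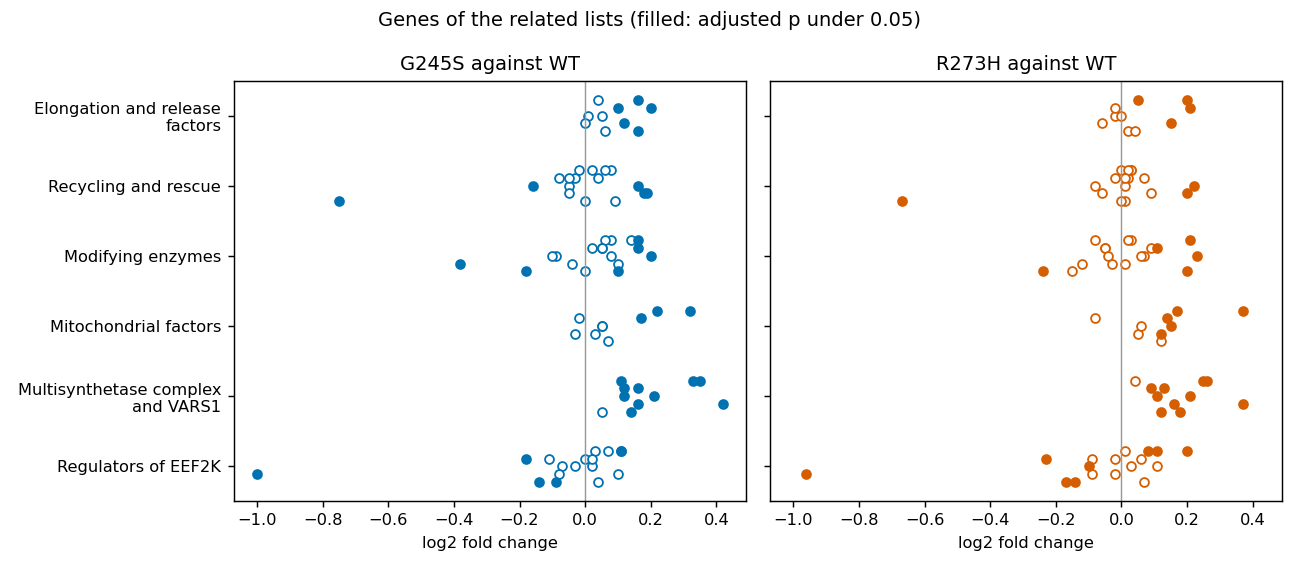
Log2 fold change against WT of every gene in 6 lists, in G245S (left) and R273H (right), with filled points where the adjusted p was under 0.05. The multisynthetase genes lie to the right of 0 in both mutants. The point furthest to the left in both panels is PRKAB1 (-0.96 in R273H), followed by ASCC3 (-0.75 in G245S and -0.67 in R273H).

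Between the mutants directly, EEF1G and EEF2 were the 2 genes of the 10 that were called, both higher in G245S. Across all genes 2.59% were called in this comparison, with 1.86% higher in G245S, and among the 4562 abundant genes these shares were 6.69% and 5.59%. Of the ribosomal protein genes 11 of 80 were higher in G245S and 1 was lower. No gene of the lists of recycling factors, modifying enzymes, mitochondrial factors, multisynthetase genes or EEF2K regulators was called.

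The profiles most like those of the called genes were looked up by Pearson correlation of log2 CPM over the 9 libraries, among the 4561 other genes whose mean count reached 1000. The libraries share pools within a group, so the 9 points are not independent. The highest were SDK2 and TMEM97 for EEF1A1 (r = 0.985 for each), SMC6 and SERPINF1 for EEF1A2 (0.990 for each) and H2AC4 for EEF1G (0.983). For EEF1E1 it was TSR1 (0.992), for EEF2 UBA1 (0.974) and for ETF1 NAA15 (0.994). The next were ELOVL5 for EEF1A1 (0.978), GARS1 for EEF1A2 (0.989), RPL36A and DIMT1 for EEF1E1 (0.988 for each), H3C13 for EEF2 (0.973), and RANBP2 and IPO11 for ETF1 (0.992 and 0.989). The list for EEF1G was completed by ENSG00000275895 (0.976) and PARP1 (0.968) and that for EEF2 by H2BC26 (0.965). H2AC4, H3C13 and H2BC26 are histone genes with near-identical copies, so their counts are uncertain.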

How the data were processed

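Per the labels and the study's methods, reads were trimmed with Trim Galore and cutadapt, handled with UMI-tools, filtered for rRNA with SortMeRNA and aligned with STAR to GRCh38. The deposited values are expected counts, estimates per gene that the authors left unscaled for depth or length, and in each library 61.5% to 63.7% of the values above 0 were fractional. The counting tool, annotation release, use of strand and handling of reads with several matches are not given in the sources used here.

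Expected counts were rounded and tested in edgeR 4.0.16 (R 4.3.3) with TMM (factors 0.987 to 1.01), filterByExpr defaults, robust glmQLFit and a two-sided glmQLFTest. All 9 libraries entered one fit with group as the term and 6 residual degrees of freedom. P-values were adjusted by Benjamini-Hochberg over 19820 genes and called under 0.05. CPM values carry the TMM factors, except those of MDM2, CDKN1A and the cell markers, which are scaled to the library total alone. The 95% intervals come from the t distribution of the fit. Fold changes are relative to all other genes. DESeq2 1.42.0 was an alternative, beside other scalings, no filter on low counts, only the libraries compared, a dish-number block, removal of the trend of each library over coding length and GC content, leaving out dishes, and counts summed with pseudogenes or sharing genes. Groups came from the sample titles. Coordinates (1-based), exons, coding length and windows come from GENCODE v44 (GRCh38, Ensembl canonical transcripts), and start windows from RefSeq. Start windows of EEF1D were left out, and EEF1A2 has no entry there.

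The genes, lists and alternatives were chosen with earlier results of these data known. Named are all 10 genes, up to 3 genes per list with the largest changes called in both mutants, and the 3 most abundant pseudogenes. Also named are MDM2, CDKN1A, the 3 nearest profiles of each gene called, and the other listed subunits of AMPK and protein phosphatase 2A. Simulated counts for the 19820 genes in G245S against WT, with 50 genes changed at each size, gave 12.0% called at 1.1-fold, 62.0% at 1.25-fold, 92.0% at 1.5-fold and 100% at 2-fold. The 200 genes changed were drawn from those with a mean count of at least 100, whereas 4900 genes were called in the data. These rates therefore need not hold for the 10 genes. Many changes reported here are near 1.1-fold, and a gene that was not called may still differ. Without a spike-in, a change shared by all genes goes unseen. Of the marker genes looked up, 1 is not reported here.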

Additional observations from a re-analysis of the deposited data

Results flagged for a closer look

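For 2 genes the mutants differed from each other in the direct test, by edgeR with adjustment over all genes. EEF1G was higher in G245S than in R273H by 0.1383 on the log2 scale (adjusted p 0.00196), with all 3 G245S dishes above all 3 R273H dishes. EEF2 was higher by 0.1173 (adjusted p 0.00330), again without overlap of the dishes. Group, cell line and pool cannot be told apart, so the part of the separate lines or pools in these differences could not be tested.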

How the results depend on the processing

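EEF1A2, EEF1E1 and ETF1 in both mutants, and EEF1G and EEF2 in G245S against WT, kept their calls in all 20 alternatives. Of the values of single genes under alternatives, 544 kept direction and side of the threshold, 17 passed it newly, 10 lost it and 29 changed sign. No value that changed sign was called. The causes were not tested.

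Calls across all genes were 3564, 4056 and 394 with DESeq2 in G245S and in R273H against WT and between the mutants, beside 4900, 5707 and 513. Leaving out 1 dish gave 3899 to 4850, 4526 to 5829 and 162 to 712 genes, and 5 to 6, 3 to 5 and 1 to 2 of the 10 genes. The direct comparison fell most, to 162 and 204 without G245S dish 1 or 2 and to 222, 233 and 295 without R273H dish 1, 2 or 3. Without dish 3 of every group it called 1026 genes, and 7, 5 and 3 of the 10 genes were called in the 3 comparisons. With the length and GC trend removed the direct comparison called 1 of the 10.

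The labels do not say that a dish number marks anything shared. Same-numbered dishes of different groups correlated at 0.04 to 0.23 over 12656 genes (9 pairs), other pairs at -0.19 to 0.06, and 17 of 18 dish-by-group comparisons were highest for the own number, a hint of pairing from the data but not from the design. With a replicate block 5779, 6547 and 1262 genes and 7, 5 and 2 of the 10 were called, newly EEF1A1 (adjusted p 0.0174) and GSPT1 (0.0171) in G245S and EEF1D, lower, in R273H (0.0194). With the length and GC trend removed as well, 804 genes were called in the direct comparison and 8 of the 10 in G245S against WT.

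Signs changed for EEF1D in G245S against WT: 0.0104 (upper-quartile scaling), 0.0014 (no filter), 0.0129 without WT dish 1, 0.0040 to 0.0233 without G245S dish 2 or 3, 0.0005 without R273H dish 3, 0.0078 without dish 3 of every group and 0.0002 when summed. EEF1B2 was at -0.0008 there without WT dish 2. In R273H against WT, EEF2 was at 0.0003 with upper-quartile scaling. EEF1B2 was at 0.0156 without the trend (with or without block), 0.0099 without WT dish 3, 0.0049 with pseudogenes and 0.0044 with sharing genes. EEF2K was at -0.0133 without WT dish 3, -0.0019 and -0.0022 without R273H dish 2 or 3 and -0.0217 without dish 3 of every group. Between the mutants, removing the trend, without and with block, gave 0.0062 and 0.0061 for EEF1A1, -0.0004 and -0.0006 for EEF1D, and 0.0131 and 0.0126 for ETF1. Without G245S dish 3 EEF1A1 was at 0.0021 and EEF1A2 at 0.0120, the latter at 0.0122 without dish 3 of every group. GSPT1 was at -0.0005 without R273H dish 1. Over all single dishes left out, the ranges were -0.0251 to 0.0233 (EEF1D) and -0.0008 to 0.0452 (EEF1B2) in G245S, -0.0352 to 0.0099 (EEF1B2) and -0.0133 to 0.0222 (EEF2K) in R273H, and -0.0120 to 0.0021 (EEF1A1), -0.0356 to 0.0120 (EEF1A2) and -0.0005 to 0.0260 (GSPT1) between the mutants.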
